A study of Mus musculus with 16 samples.

Results

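A set of 10 genes was followed across BAT of mice with and without *Gdf15* in thermogenic adipocytes: *Gpd1*, *Gpd2*, *Gk* and *Pck1*, which supply or use glycerol 3-phosphate, and *Gpam*, *Agpat2*, *Agpat3*, *Lpin1*, *Dgat1* and *Dgat2*, which assemble triglyceride from it. They were listed by name for their place in the pathway, and all 10 of 10 were found among the 49066 genes of the series and had a mean of at least 1 TPM, the abundance unit in which each library has the same sum. BAT came from 4 male WT, 4 male GDF15 BKO (KO), 4 female WT and 4 female KO mice on a C57BL6/J background. All mice were homozygous for the floxed *Gdf15* allele and 18 weeks old, and all had been fed an HFD with 60% of its kcal from fat for 12 weeks from 6 weeks of age. WT mice lacked Cre, and KO mice carried a Cre transgene driven by the *Ucp1* promoter, so the deletion is limited to cells that use that promoter and cells of the stromal vascular fraction keep the gene. No chow-fed group was analysed here.

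Triglyceride is built on glycerol 3-phosphate. In adipocytes this backbone comes from glycolysis, from glyceroneogenesis, or from free glycerol through glycerol kinase, which brown fat is known to express more than white fat does. Acyltransferases add fatty acids to the backbone, a phosphatase of the lipin family removes the phosphate, and a diacylglycerol acyltransferase adds the last fatty acid. In brown adipocytes the cytosolic and the mitochondrial glycerol 3-phosphate dehydrogenase also form a shuttle that passes electrons from cytosolic NADH to the respiratory chain.

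*Gdf15* had 0.368 to 3.81 TPM in male WT mice and 0.0801 to 0.272 TPM in male KO mice, without overlap, and 0.0622 to 0.311 TPM in female WT mice against 0 to 0.0794 TPM in female KO mice, with overlap. None of 10 brown adipocyte markers was at 0 throughout a group, and their sum had a level of 6070.1 to 12775 TPM per library, while 6 lymphocyte markers summed to at most 4.76 TPM. A list of 12 skeletal muscle markers ranged from 2.56 to 5833 TPM, was high in libraries of all 4 groups and had r from -0.52 (*Gpam*, rho = -0.59) to 0.17 (*Agpat2*) with the 10 genes over the 16 libraries, and its part was not tested. Mitochondrial transcripts took 34.5 to 59.8% of the TPM, so every TPM is a share of a sum in which this part varied. Female WT replicate 4 stood apart: transcripts that no gene was matched to took 17.7% of its TPM, against 0.333 to 0.480% in the other 15 libraries, and 1 of them alone took 16.5%. Its mitochondrial share was the lowest, and the TPM of every gene is taken from the same sum, so the main differences in females are also given with the matched transcripts rescaled to one sum or without this library. Depth is unknown from TPM, and the library names start with a prefix whose meaning is not stated.

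The 10 genes were abundant in BAT. Their TPM, a level per transcript length, added up to 5094 to 7354 in male WT, 6649 to 8605 in male KO, 5843 to 6711 in female WT and 4586 to 6392 in female KO mice. *Gpd1* was the highest with a mean of 2591 TPM over the 16 libraries, followed by *Pck1* (1333), *Agpat2* (873), *Dgat2* (864), *Dgat1* (230.3), *Agpat3* (223), *Gpd2* (154), *Gpam* (62.5), *Gk* (45.8) and *Lpin1* (35.0). Most steps of this order held within mice: *Dgat2* was above *Dgat1* in 16 of 16 libraries, *Agpat3* above *Gpd2* in 15, and *Gpd1* above *Pck1* in 14, the exceptions being female KO replicates 1 and 4. Neighbours that were not separated beyond their spread were *Agpat2* and *Dgat2* (*Agpat2* higher in 8 of 16), *Dgat1* and *Agpat3* (*Dgat1* higher in 5 of 16) and *Gk* and *Lpin1* (*Gk* higher in 10 of 16). Values are sums over all transcripts, of which protein-coding ones held a mean of 24.0% for *Agpat2*, 27.1% for *Dgat1* and 58.4% for *Gk*. The genes varied to very different degrees, from 1.55-fold between the lowest and highest library for *Agpat3* and 1.73-fold for *Pck1* to 4.82-fold for *Gpd2* and 8.93-fold for *Lpin1*.

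**Figure D1:**
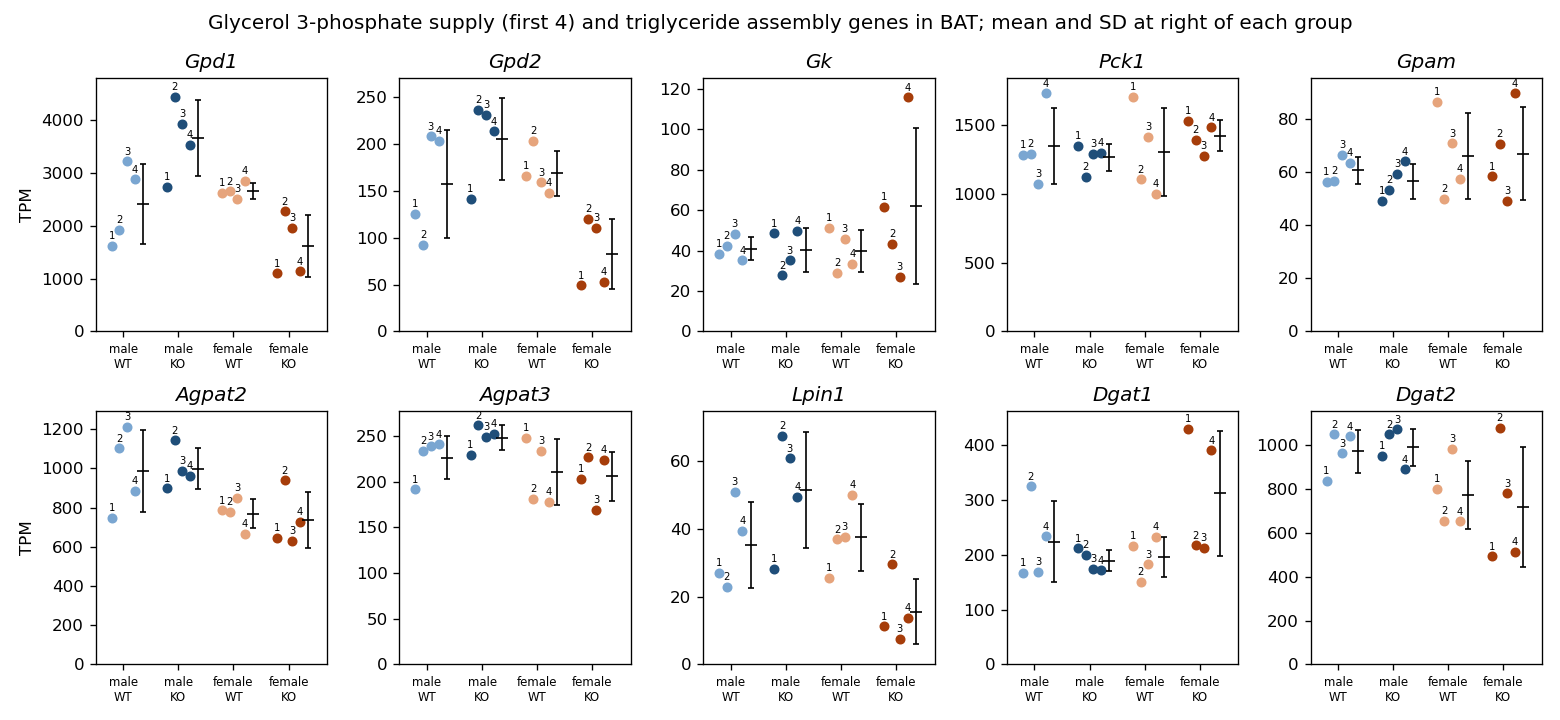
TPM (linear axes from 0) of the 4 genes of glycerol 3-phosphate supply and the 6 of triglyceride assembly in each library, numbered by replicate, with the group mean and SD as a black bar to the right of each group (n = 4). *Gpd1* and *Gpd2* of all female KO libraries lie below those of all female WT libraries, *Lpin1* does so in 3 of 4, and *Pck1*, *Gpam* and *Agpat3* overlap in both sexes.

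*Gpd1* on chromosome 15 encodes the cytosolic dehydrogenase that reduces dihydroxyacetone phosphate to glycerol 3-phosphate. It had 1619.9, 1929, 3224 and 2882 TPM in male WT replicates 1 to 4 and 2742, 4441, 3939 and 3543 TPM in male KO mice. Male KO values were mostly above WT, but the groups overlapped at KO replicate 1. In females the values were 2631, 2656, 2508 and 2861 TPM in WT mice and 1101, 2274, 1969.9 and 1136 TPM in KO mice. Here the direction was the opposite, and no KO mouse reached the lowest WT mouse. Here and below, ± gives the SD over the 4 mice of a group (n = 4). In males the mean of 2414 ± 762 TPM in WT stood against 3667 ± 717 TPM in KO, a log2 fold change of 0.64 (standard error, SE, 0.24) that did not pass limma's test (adjusted p = 0.232). In females 2664 ± 146 TPM in WT stood against 1620.4 ± 593 TPM in KO, a log2 fold change of -0.79 (SE 0.25), again not past limma's threshold over all genes (adjusted p = 0.231). The exact two-sided permutation test gave p = 0.0857 in males and p = 0.0286 in females, the smallest p that 4 against 4 allow. Of the *Gpd1* TPM, at least 99.2% were assigned to the protein-coding transcript Gpd1-201 in every library.

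*Gpd2* on chromosome 2 encodes the mitochondrial flavin-linked dehydrogenase, which oxidizes glycerol 3-phosphate at the inner membrane. The RefSeq annotation of GRCm38.p6 gives it 2 start sites, both on the plus strand, whose windows of 250 bases before and 50 after the start are shown because *Gpd2* and *Gpd1* varied together; neither window holds any of the motifs searched below, so no letter is in capitals. The windows are chr2:57237428-57237727 and chr2:57238132-57238431.
Gpd2 first window: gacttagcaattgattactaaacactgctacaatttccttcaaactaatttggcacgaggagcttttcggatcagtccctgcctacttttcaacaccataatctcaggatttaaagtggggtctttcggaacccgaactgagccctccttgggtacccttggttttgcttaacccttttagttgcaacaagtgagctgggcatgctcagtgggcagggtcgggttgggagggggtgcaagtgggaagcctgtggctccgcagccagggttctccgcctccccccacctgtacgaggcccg
Gpd2 second window: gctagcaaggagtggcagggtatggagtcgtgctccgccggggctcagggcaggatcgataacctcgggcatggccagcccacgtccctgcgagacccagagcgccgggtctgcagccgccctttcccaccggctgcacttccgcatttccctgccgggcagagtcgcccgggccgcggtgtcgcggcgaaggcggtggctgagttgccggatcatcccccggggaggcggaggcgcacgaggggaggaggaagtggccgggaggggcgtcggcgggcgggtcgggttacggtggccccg

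*Gpd2* had 125, 92.7, 209 and 204 TPM in male WT mice and 142, 237, 231 and 214 TPM in male KO mice, with overlapping groups. In female WT mice it had 166, 203, 159 and 148 TPM, and in female KO mice 49.1, 120.1, 111 and 52.7 TPM. All female KO values were below all WT values, with replicates 1 and 4 lowest, the same libraries as for *Gpd1*. The log2 fold change was 0.44 (SE 0.28, adjusted p = 0.411 by limma) in males and -1.13 (SE 0.31, adjusted p = 0.231 by limma) in females. In females the exact two-sided permutation p was 0.0286. Gpd2-201, a protein-coding transcript of 5620 bases, took at least 98.8% of the *Gpd2* TPM in every library.

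*Gk* on the X chromosome encodes glycerol kinase, which phosphorylates free glycerol. Its 38.5, 42.4, 48.2 and 35.1 TPM in male WT mice and 48.6, 27.7, 35.2 and 49.9 TPM in male KO mice overlapped throughout. In females it had 51.4, 28.9, 45.8 and 33.5 TPM in WT mice and 61.7, 43.5, 26.9 and 116 TPM in KO mice, so the highest and the lowest of all 16 libraries were both female KO mice. The female log2 fold change of 0.47 (SE 0.40, adjusted p = 0.528 by limma) was within that spread. *Gk* was divided among several transcripts: the protein-coding Gk-206 held 22.5 to 39.8% of its TPM and Gk-204, annotated as a retained intron, 13.9 to 29.2%.

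*Pck1* on chromosome 2 encodes the cytosolic phosphoenolpyruvate carboxykinase, the committed enzyme of glyceroneogenesis. Its promoter is a textbook target of cAMP signalling, and its window from RefSeq (GRCm38.p6, plus strand, chr2:173152823-173153122) is shown for that reason, with the match to TGACG, the core of the cAMP response element, in capitals. The match is on the opposite strand and begins 90 bases before the start.
Pck1 window: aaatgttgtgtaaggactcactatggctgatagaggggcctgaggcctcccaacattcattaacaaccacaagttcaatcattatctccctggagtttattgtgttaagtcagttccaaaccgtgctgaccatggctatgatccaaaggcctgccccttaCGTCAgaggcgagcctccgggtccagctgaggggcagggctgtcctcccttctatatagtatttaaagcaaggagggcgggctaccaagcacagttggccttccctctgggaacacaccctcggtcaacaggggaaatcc

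*Pck1* varied 1.73-fold over the 16 libraries, less than any other of the 10 genes except *Agpat3*. It had 1282, 1291, 1070.3 and 1728 TPM in male WT and 1348, 1123, 1290.5 and 1297 TPM in male KO mice. The female values were 1700.1, 1103, 1413 and 997 TPM in WT and 1530.3, 1391, 1276 and 1482 TPM in KO mice. All KO values lay inside the WT range in both sexes. The log2 fold changes of -0.07 (SE 0.15, adjusted p = 0.811 by limma) in males and 0.15 (SE 0.19, adjusted p = 0.669) in females were smaller than their standard errors.

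Motifs were searched for on both strands of the promoter windows: TGACG, the CCAAT box (CCAAT) and the TATA box (TATAAA). RefSeq windows were at hand for 7 of the 10 genes (9 windows, as *Gpam* and *Gpd2* have 2 each), and *Dgat1*, *Dgat2* and *Gpd1* had none. Besides *Pck1*, TGACG was in the *Gk* window, 4 bases before the start, and in the second *Gpam* window, 31 and 9 bases before it. The last bases of that second window were not found in its annotated transcript, unlike those of the other windows. CCAAT was in the first *Gpam* window, 74 bases before the start, and TATAAA was in none of the 9. Among 32817 windows of the same length over all genes, 20.8% held TGACG, 37.4% CCAAT and 13.6% TATAAA. A match is a run of letters and not a shown binding site.

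The first acylation is carried out by glycerol-3-phosphate acyltransferases. *Gpam* on chromosome 19 encodes a mitochondrial one. It had 56.2, 56.5, 66.4 and 63.5 TPM in male WT, 49.2, 53.2, 59.3 and 63.96 TPM in male KO, 86.2, 49.8, 70.7 and 57.3 TPM in female WT and 58.3, 70.6, 49.1 and 89.5 TPM in female KO mice. The groups overlapped in both sexes, with log2 fold changes of -0.11 (SE 0.11, adjusted p = 0.608 by limma) in males and 0.01 (SE 0.23, adjusted p = 0.979) in females.

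The second acylation, of lysophosphatidic acid, is catalysed by AGPAT enzymes, of which *Agpat2* is the main adipocyte form and is mutated in a congenital lipodystrophy. *Agpat2* on chromosome 2 had 747, 1102, 1210.4 and 886 TPM in male WT, 899, 1144, 986 and 963 TPM in male KO, 786, 777, 849.9 and 666 TPM in female WT and 647, 939.9, 632 and 729 TPM in female KO mice. *Agpat3* on chromosome 10 ranged from 192 to 241 TPM in male WT, 229 to 262 TPM in male KO, 178 to 248 TPM in female WT and 169 to 227 TPM in female KO mice. Neither gene separated the genotypes: the log2 fold changes were 0.04 and 0.14 in males and -0.08 and -0.03 in females (adjusted p by limma from 0.482 to 0.946). Male WT replicate 1 was the lowest male library for both genes.

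For *Agpat2* most of the gene sum was assigned to transcripts not annotated as coding. This split, like those of *Dgat1* and *Gk*, rests on the assignment of reads to transcripts, whose uncertainty TPM do not give. The transcript Agpat2-202, annotated as a processed transcript without a coding sequence, held 62.7 to 81.5% of the TPM, and the protein-coding Agpat2-201 held 15.7 to 34.8%. Counted alone, the coding transcript had 217 ± 48.4 TPM in male WT, 271 ± 38.4 TPM in male KO, 203 ± 44.5 TPM in female WT and 149.9 ± 53.8 TPM in female KO mice. The groups overlapped in both sexes, with log2 differences of 0.35 in males (exact two-sided permutation p = 0.114) and -0.47 in females (exact two-sided permutation p = 0.229). Both had an adjusted p of at least 0.762 over the 16 tests of transcript types of *Dgat1*, *Agpat2* and *Gk*.

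*Lpin1* on chromosome 12 encodes lipin 1, the phosphatidate phosphatase that makes diacylglycerol and also acts as a transcriptional coactivator. Its RefSeq window (GRCm38.p6, minus strand, chr12:16610917-16611216) is shown because *Lpin1* had the widest range of the 10 genes; it holds none of the motifs.
Lpin1 window: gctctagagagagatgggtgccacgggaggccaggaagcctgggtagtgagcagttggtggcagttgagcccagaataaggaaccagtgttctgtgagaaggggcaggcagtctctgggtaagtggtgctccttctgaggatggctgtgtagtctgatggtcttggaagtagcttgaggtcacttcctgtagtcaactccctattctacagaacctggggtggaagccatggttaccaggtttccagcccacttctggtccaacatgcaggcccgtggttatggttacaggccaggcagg

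*Lpin1* had 27.1, 22.999, 51.0 and 39.5 TPM in male WT and 28.3, 67.5, 60.9 and 49.6 TPM in male KO mice. In females it had 25.7, 36.9, 37.7 and 50.02 TPM in WT and 11.3, 29.5, 7.56 and 13.9 TPM in KO mice. Female KO replicates 1, 3 and 4 were below every other library of the series, and replicate 2 lay among the WT mice. The female log2 fold change was -1.38 (SE 0.37), or a KO level 0.384 times that of WT. It did not pass limma's test over all genes (adjusted p = 0.231), and the exact two-sided permutation p was 0.0571. In males the log2 fold change was 0.54 (SE 0.32, adjusted p = 0.368 by limma), with overlapping groups. The protein-coding Lpin1-202 was the main transcript, with 53.0 to 83.6% of the TPM.

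The last step is shared by enzymes that are unrelated in sequence. *Dgat2* on chromosome 7, known for its work with newly made fatty acids, had 839, 1049.7, 964 and 1041 TPM in male WT, 951, 1050.0, 1073 and 890.4 TPM in male KO, 800.2, 656, 983 and 653 TPM in female WT and 494, 1079, 782 and 515 TPM in female KO mice. Female KO replicates 1 and 4 were the lowest of all libraries, while replicate 2 was the highest. The log2 fold changes were 0.03 (SE 0.11, adjusted p = 0.900 by limma) in males and -0.16 (SE 0.27, adjusted p = 0.752) in females.

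*Dgat1* on chromosome 15, which also re-esterifies fatty acids released by lipolysis, had 167, 325, 169 and 234 TPM in male WT and 212, 200.1, 175 and 172 TPM in male KO mice. In females it had 216, 151, 183 and 233 TPM in WT and 429.8, 217, 212 and 391 TPM in KO mice. The female KO mean was set by replicates 1 and 4, and replicates 2 and 3 lay among the WT mice. The log2 fold change was 0.62 (SE 0.27, adjusted p = 0.289 by limma) in females and -0.19 (SE 0.21, adjusted p = 0.628) in males.

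The high *Dgat1* libraries differed in the kind of transcript. The protein-coding Dgat1-201 of 1888 bases held only 12.7 to 38.6% of the *Dgat1* TPM, and much of the rest lay in short transcripts annotated as retained introns, such as Dgat1-205 of 885 bases. Retained-intron transcripts summed to 311, 119, 132 and 259.6 TPM in female KO mice and to 117, 74.3, 99.8 and 141 TPM in female WT mice. They were also high, at 225 TPM, in male WT replicate 2. Protein-coding *Dgat1* had 54.5, 68.8, 35.1 and 76.5 TPM in female KO and 64.2, 43.6, 56.8 and 42.9 TPM in female WT mice, so replicates 1 and 4 did not stand apart together in it. The female log2 difference was 0.84 for retained-intron transcripts (exact two-sided permutation p = 0.114) and 0.14 for protein-coding ones (exact two-sided permutation p = 0.686), with adjusted p of 0.762 and 0.800 over the 16 tests. Over all nuclear genes, retained-intron transcripts took 5.94 to 6.75% of the TPM in female KO mice, highest in replicate 1, and 5.52 to 6.22% in the other libraries.

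**Figure D2:**
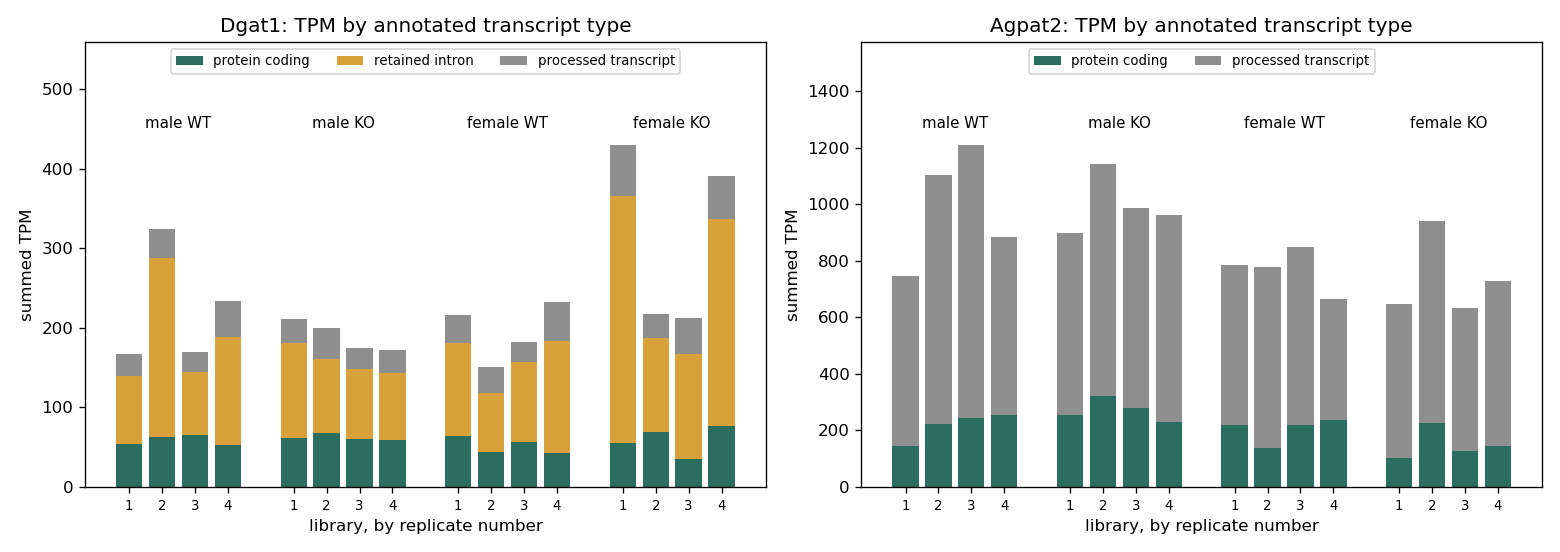
Summed TPM of *Dgat1* (left) and *Agpat2* (right) in each of the 16 libraries, stacked by the transcript type in the annotation. The tall *Dgat1* bars of female KO replicates 1 and 4 consist mainly of retained-intron transcripts (311 and 259.6 TPM), and most of every *Agpat2* bar is a processed transcript.

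Comparison of genotypes within each sex asked whether loss of *Gdf15* in thermogenic adipocytes moved the pathway. With limma, 0 of the 10 genes passed an adjusted p of 0.05 in males, where 1 of 12176 genes did (0.00821%), and 0 of 10 in females, where 0 of 12141 genes did (0%). At an unadjusted p under 0.05, 1 of 10 was higher in male KO mice (*Gpd1*), against 17.7% of all genes, and 0 were lower, against 1.07%. In females 1 of 10 was higher (*Dgat1*), against 11.6% of all genes, and 3 were lower (*Lpin1*, *Gpd2* and *Gpd1*), against 5.45%. No gene of the 10 lay with all KO mice above all WT mice, against 9.55% of genes in males and 4.89% in females, or with all KO mice below in males, against 0.673%. In females *Gpd1* and *Gpd2* did lie wholly below, 2 of 10 against 3.19% of all genes. The median log2 fold change of the 10 genes was 0.03 in males and -0.05 in females, beside 0.16 and 0.10 for all genes tested. The split of all genes at an unadjusted p under 0.05 depended on scaling: the 2150 higher and 130 lower genes in males became 1002 and 882 with median-of-ratios factors, and the 1413 and 662 in females became 1215 and 1263 with these factors and 991 and 966 with matched transcripts rescaled to one sum.

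**Figure D3:**
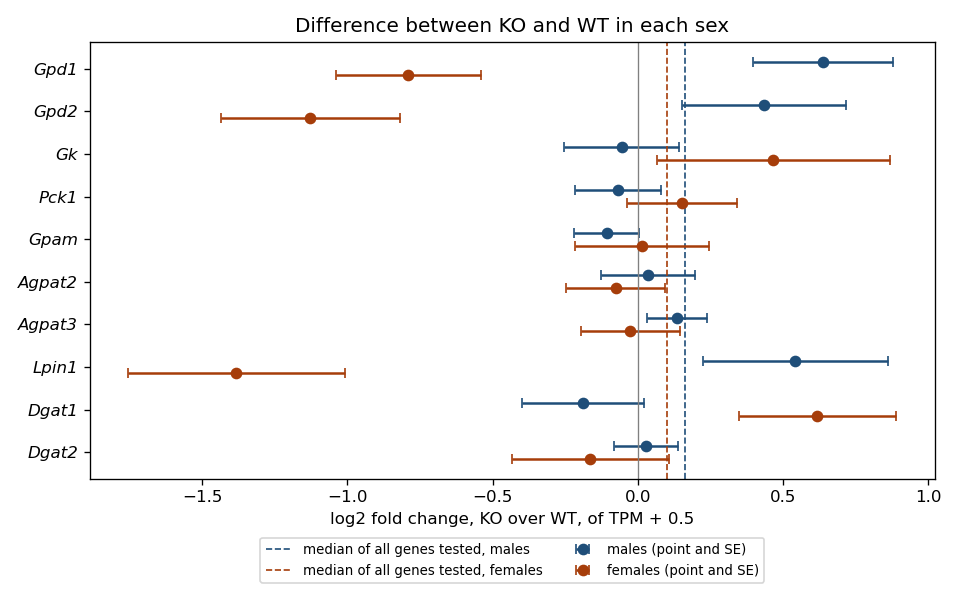
Log2 fold change of TPM + 0.5, KO over WT, with its standard error (bars) for the 10 genes in males and females (n = 4 per group), with dashed lines at the median of all genes tested in each sex. *Lpin1*, *Gpd2* and *Gpd1* lie at -1.38, -1.13 and -0.79 in females and at 0.54, 0.44 and 0.64 in males, and none passed the adjusted threshold.

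How far the genotype effect differed between sexes was taken from the interaction term, male minus female. It was 1.93 for *Lpin1* (SE 0.53, unadjusted p = 0.0024 by limma), 1.56 for *Gpd2* (SE 0.45, unadjusted p = 0.00314) and 1.43 for *Gpd1* (SE 0.36, unadjusted p = 0.00131), each with an adjusted p of 0.216 by limma. *Dgat1* had -0.81 (SE 0.36, adjusted p = 0.328 by limma). Thus 3 of 10 genes were above 0 at an unadjusted p under 0.05, against 11.7% of all genes, and 1 was below 0, against 2.51%. These shares of all genes depended on scaling: the 1429 genes above and 306 below 0 became 1218 and 1100 with median-of-ratios factors. After adjustment 0 of the 10 passed, and so did 0 of 12210 genes (0%). The other 6 genes ranged from -0.52 (*Gk*) to 0.19 (*Dgat2*).

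These differences changed when particular libraries were left out. Without female KO replicates 1 and 4, a choice made after seeing the data, the female log2 fold change was -0.33 for *Gpd1*, -0.54 for *Gpd2*, -1.25 for *Lpin1* and 0.15 for *Dgat1*, and the interaction was 0.97, 0.98, 1.80 and -0.34. Without male WT replicates 1 and 2, the male libraries with prefix 5 that were low in *Gpd1*, the male log2 fold change was 0.24 for *Gpd1*, -0.03 for *Gpd2* and 0.13 for *Lpin1*. Without female WT replicate 4 the female values were -0.76 for *Gpd1*, -1.19 for *Gpd2*, -1.23 for *Lpin1* and 0.71 for *Dgat1*. With matched transcripts rescaled to one sum, also chosen after seeing the data, they were -0.86, -1.20, -1.45 and 0.55, and *Gpd1* and *Gpd2* of all female KO mice still lay below those of all female WT mice. Prefix 9 holds 2 male WT and 3 male KO libraries and 1 female KO library (replicate 4). Within it the male log2 fold change was 0.38 for *Gpd1*, 0.14 for *Gpd2* and 0.39 for *Lpin1*. Among female libraries prefix 8b holds 3 WT mice and 1 KO mouse, with -0.44 for *Gpd1*, -0.61 for *Gpd2* and -2.37 for *Lpin1*, and prefix 10 holds 1 of each, with -1.26, -1.75 and -1.15. Markers of white adipocytes moved with these genes. The sum of 6 such markers, led by *Lep*, *Nnat* and *Npr3* with *Hoxc9* and *Hoxc10* at or near 0, was 105 to 231 TPM in male WT, 168 to 223 TPM in male KO, 40.1 to 142 TPM in female WT and 25.8 to 93.1 TPM in female KO mice. Its r over the 16 libraries was 0.76 with *Gpd1*, 0.78 with *Gpd2* and 0.66 with *Lpin1*, and -0.67 with *Gk*, -0.64 with *Dgat1* and -0.61 with *Gpam*, and its part in the result was not tested. The white adipocyte sum overlapped between genotypes in both sexes. Sums of macrophage, fibroblast and endothelial markers separated the genotypes as deposited, each in only a single sex. The sum of 10 macrophage markers was 26.9 to 53.7 TPM in male WT and 67.0 to 103 TPM in male KO mice, and that of 8 fibroblast markers was 74.9 to 136 TPM in male WT and 140.2 to 155 TPM in male KO mice, both without overlap. The sum of 6 endothelial markers was 188 to 282 TPM in female WT and 305 to 611 TPM in female KO mice, without overlap as deposited, but the groups overlapped once the matched transcripts were rescaled (188 to 342 against 306 to 614). The macrophage and fibroblast sums overlapped between genotypes in females, and the endothelial sum did so in males. The part of these cell types was not tested either. In bulk tissue, fewer cells of a type and less RNA per cell cannot be told apart.

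The mean genotype effect over both sexes, a comparison added to an earlier analysis after values were seen, held no member either. With limma 0 of 10 passed and 0 had an unadjusted p under 0.05, while 358 of 12210 genes (2.93%) passed. The values ranged from -0.42 for *Lpin1* (SE 0.26) to 0.22 for *Dgat1* (SE 0.18). Between WT males and WT females 0 of 10 genes passed and 0 had an unadjusted p under 0.05 by limma, while 8 of 12042 genes passed (0.0664%). The largest differences, male minus female, were 0.35 for *Dgat2* (SE 0.17) and 0.34 for *Agpat2* (SE 0.18), each with an adjusted p of 0.9997 by limma.

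Pairs of enzymes that share or oppose a step were compared as ratios of TPM within each library, which no scaling of a library can move. The ratio of *Dgat2* to *Dgat1* was 4.603 ± 1.046 in male WT, 5.27 ± 0.674 in male KO, 4.06 ± 1.09 in female WT and 2.78 ± 1.86 in female KO mice. The last group was split, with 1.15 and 1.32 in replicates 1 and 4 and 4.97 and 3.68 in replicates 2 and 3. Most of the *Dgat1* sum was assigned to transcripts not annotated as coding. Among coding transcripts, *Dgat2* stayed well above *Dgat1* in all female KO mice. In replicates 1 to 4 these had 492, 1069, 778 and 513 TPM for *Dgat2* and 54.5, 68.8, 35.1 and 76.5 TPM for *Dgat1*. *Gpd1* exceeded *Gpd2* 12.9- to 22.4-fold in all libraries. This ratio was 16.003 ± 2.58 in female WT and 20.2 ± 2.17 in female KO mice (exact two-sided permutation p = 0.0857). *Lpin1* relative to the sum of *Lpin2* and *Lpin3* was 5.47 to 8.86 in female WT mice and 1.49, 6.08, 1.67 and 1.92 in female KO mice, a log2 difference of -1.60 (exact two-sided permutation p = 0.0571). *Gk* was 0.0203 to 0.0782 times *Pck1*, *Agpat2* was 3.17 to 5.07 times *Agpat3*, and *Gpam* was 0.594 to 0.947 times *Gpat4*, another acyltransferase of the first step. The *Agpat2* sum is mostly a processed transcript, and the coding transcripts of *Agpat2* and *Agpat3* were at similar levels. Their means were 217 and 220 TPM in male WT, 271 and 241 in male KO, 203 and 202 in female WT, and 149.9 and 200 in female KO mice. Over the 18 tests of 6 ratios in males, females and between WT sexes, the adjusted p was at least 0.686, and no ratio separated its groups.

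The levels of several of the 10 genes moved together from mouse to mouse. As a description over 16 libraries, which share their scaling and fall into 4 groups, log2(TPM + 0.5) of *Gpd1* and *Gpd2* had r = 0.95 (rho = 0.94), and r = 0.91 after the group means were taken out. *Lpin1* had r = 0.84 with *Gpd1* and 0.82 with *Gpd2*, or 0.60 and 0.52 within groups. *Dgat1* ran the other way, with r = -0.86 to *Gpd2* and -0.72 to *Gpd1*, but rho was only -0.62 and -0.46. These values use the *Dgat1* sum, most of which was assigned to transcripts not annotated as coding. No correlation was computed for its coding transcripts alone. *Agpat2* went with *Agpat3* (r = 0.76) and *Dgat2* (r = 0.76), and *Gpam* with *Gk* (r = 0.71). Among all genes of at least 1 TPM, the one most like *Gpd1* was *Dlat* (r = 0.98), a subunit of pyruvate dehydrogenase, followed by *Pgd* (r = 0.98) of the pentose phosphate pathway. *Gpd2* was most like *Uevld* (r = 0.98), *Agpat3* like *Crat* (r = 0.94), which encodes carnitine acetyltransferase, *Dgat2* like *Stx18* (r = 0.95), *Dgat1* like *Dhx16* (r = 0.94), an RNA helicase of splicing, *Lpin1* like *Arid1b* (r = 0.93), *Gk* like *Slc22a15* (r = 0.93), *Agpat2* like *Ciapin1* (r = 0.91), *Gpam* like *Pdp2* (r = 0.90) and *Pck1* like *Zkscan5* (r = 0.88). The best of many genes is high by selection, so these names are a description.

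**Figure D4:**
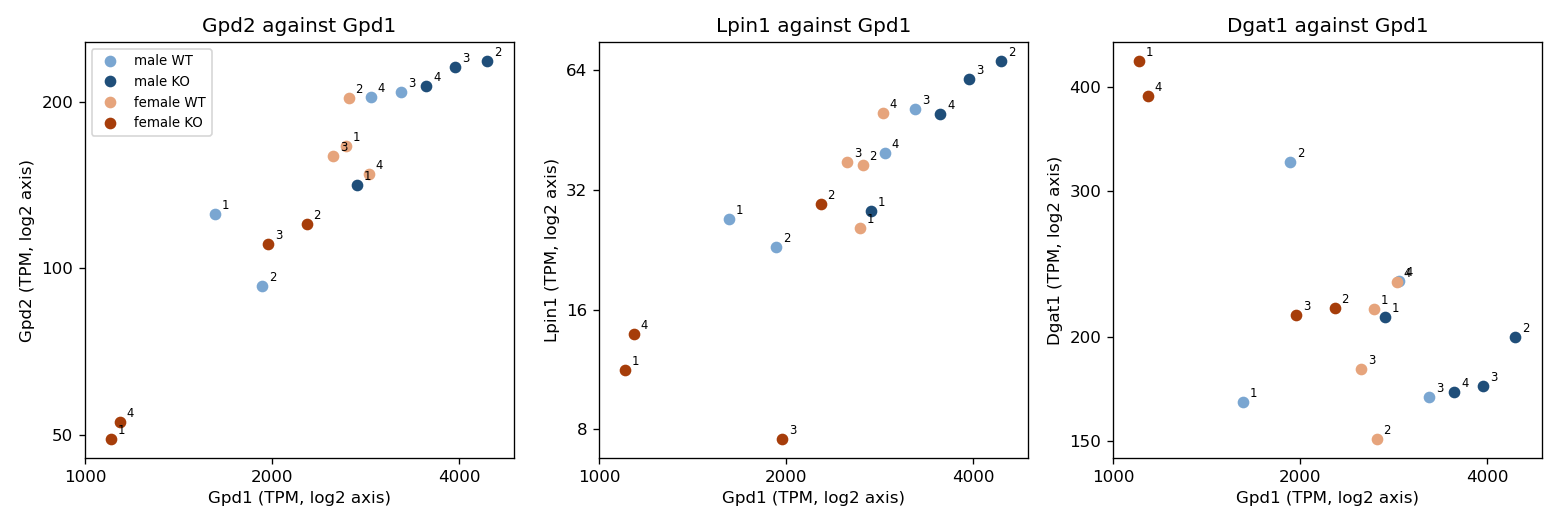
TPM of *Gpd2*, *Lpin1* and *Dgat1* against *Gpd1* in the 16 libraries (log2 axes, points numbered by replicate and coloured by group). *Gpd2* follows *Gpd1* (r = 0.95), female KO replicates 1 and 4 lie at the low end of *Gpd1* and the high end of *Dgat1*, and *Lpin1* of female KO replicate 3 lies below that trend.

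A list of 30 further genes of the pathway, of which 25 were tested in males and 26 in females, gave no call within a sex by limma (0 in each). At an unadjusted p under 0.05, 5 of 25 were higher and 1 lower in male KO mice, against 17.7% and 1.07% of all genes, and 4 of 26 were higher and 2 lower in female KO mice, against 11.6% and 5.45%. The median log2 fold change of the list was 0.14 in males and 0.19 in females, beside 0.16 and 0.10 for all genes tested. At the extremes in males were *Lpin3*, a lipin paralog, with a log2 fold change of 0.80 (adjusted p = 0.173 by limma), *Plpp3*, a lipid phosphate phosphatase, with 0.48 (adjusted p = 0.215) and *Gpat4* with -0.30 (adjusted p = 0.203). *Gpat4* had 85.7 ± 6.97 TPM in male WT and 69.3 ± 3.54 TPM in male KO mice, without overlap. It was the 1 of 25 list genes wholly below in male KO mice, against 0.673% of all genes. At the extremes in females were *Plpp1* with 0.96, *Agpat4* with 0.92, *Fitm1*, a fat storage protein known from muscle, with 0.68 and *Acsl5*, an acyl-CoA synthetase, with -0.79 (adjusted p by limma from 0.231 to 0.707). *Fitm1* was at 0 to 2.68 TPM in female WT and 0 to 7.28 TPM in female KO mice, in which the muscle markers reached 1668 and 5073 TPM.

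The mean effect over both sexes had been added as a comparison after values were seen, which bears on every call made from it. In this mean effect, 3 of 25 genes of this list passed limma's test and all 3 were higher in KO mice: *Lpin3* (log2 fold change 0.71, adjusted p = 0.0313), *Agpat4* (0.69, adjusted p = 0.0293) and *Plpp3* (0.57, adjusted p = 0.0331). Of all 12210 genes 315 (2.58%) passed as higher and 43 (0.352%) as lower, or 233 and 224 with median-of-ratios factors. *Lpin3* and *Agpat4* were low in BAT, with 3.09 ± 1.08 TPM and 1.17 ± 0.497 TPM in male WT mice and 2.06 ± 0.267 TPM and 0.958 ± 0.194 TPM in female WT mice. The calls were lost with no TPM minimum, with the replicate number as a block and with the prefix as a covariate, and 6 to 9 of 16 fits without a single library kept them. With matched transcripts rescaled to one sum, 80 of 12246 genes passed, and of the 3 only *Agpat4* did (adjusted p by limma 0.0447, against 0.0567 for *Lpin3* and 0.0651 for *Plpp3*).

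Of 14 regulators, *Ppara*, the nuclear receptor of fatty acid oxidation, had the lowest log2 fold change in both sexes. Its level was 49.2 ± 11.6 TPM in male WT and 37.3 ± 7.07 TPM in male KO mice, and 55.1 ± 13.4 TPM in female WT and 28.0 ± 4.93 TPM in female KO mice. The female groups did not overlap, with a log2 fold change of -0.95 (adjusted p = 0.231 by limma), against -0.38 (adjusted p = 0.300 by limma) in males. *Ppara* was the 1 of 14 regulators wholly below in female KO mice, against 3.19% of all genes. Its mean effect over both sexes of -0.67 passed limma's test (SE 0.15, adjusted p = 0.0313), the only call among the regulators (1 of 14 lower, against 0.352% of all genes), and was lost under the same 3 alternatives and in 8 of 16 fits without a single library. The other extremes were *Mlxipl* (0.52), which encodes the carbohydrate-responsive factor ChREBP, and *Ppargc1a* (-0.31) in males and *Ppargc1b* (-0.57), also a coactivator, in females, with adjusted p by limma from 0.247 to 0.350. The median log2 fold change of the 14 regulators was 0.11 in males and -0.07 in females, again beside 0.16 and 0.10 for all genes.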

How the data were processed

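BAT RNA of 16 mice was sequenced single-end from stranded mRNA libraries. The authors assigned reads to transcripts with kallisto 0.46.2 (GRCm39, per the submitters' processing notes), tested with DESeq2 and deposited TPM per transcript. Counts were not used here, so DESeq2 was not run and no counting interval is given. Of 137438 transcripts, 135051 matched GENCODE mouse release 21 without version and 2387 did not, and the TPM of the matched ones were summed per symbol as deposited. The unmatched ones held 17.7% of the TPM of female WT replicate 4 and at most 0.480% of any other library, so a fit on matched transcripts rescaled to one sum was added after seeing the data. The authors' annotation release is not given in the sources used here. Promoter windows came from RefSeq (GRCm38.p6).

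Genes averaging 1 TPM or more in a comparison were fitted with limma 3.58.1 on log2(TPM + 0.5), with a trend in the variance and Benjamini-Hochberg adjustment over all of them (threshold 0.05), tested beforehand on simulated data. The pseudocount understates changes of low genes. Ratios and transcript types had exact two-sided permutation tests. Groups and replicate numbers came from the labels. Limma's p-values set a difference against the spread between the 4 mice of a group, moderated over all genes tested. For the interaction and the mean effect this spread was pooled over all 4 groups. The exact tests compared a difference with those from all other splits of the same libraries. Named beyond the 10 genes were list genes past the threshold, those in a ratio, the 3 largest and 3 smallest changes over both lists in each sex, and the most alike gene of each member; *Pgd*, *Lep*, *Nnat*, *Npr3*, *Hoxc9* and *Hoxc10* were named after their values were seen. The 10 genes and all lists were chosen with earlier results of these data known.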

Additional observations from a re-analysis of the deposited data

Results flagged for a closer look

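Of 40 groups of 4 libraries (10 genes in 4 groups), 1 held a library far from the others by Dixon's criterion, where chance gives about 1 in 20. *Agpat3* had 192 TPM in male WT replicate 1, against 234 to 241 TPM in the other 3 male WT libraries. The gap to the nearest of them was 0.854 of the range of the group.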

How the results depend on the processing

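In each of the 5 comparisons and under every alternative run, 0 of the 10 genes passed the threshold. Of 870 log2 fold changes of the members recomputed under the alternatives, 58 had another sign, and the cause was not tested unless stated. The 870 held the mean effect over both sexes only for *Lpin1* and *Dgat1*. Median-of-ratios scaling moved the median of all genes from 0.16 to 0.00 in males and from 0.10 to 0.00 in females; with it *Agpat2* had -0.14, *Agpat3* -0.036 and *Dgat2* -0.15 in males, *Gpam* -0.090 in females and *Pck1* -0.0069 between WT sexes. Without mitochondrial transcripts *Agpat2* had -0.070 and *Dgat2* -0.079 in males, and *Gpam* -0.14 and *Pck1* -0.0028 in females. With protein-coding transcripts only, *Dgat1* had 0.084 in males, and the log2 ratio difference was -0.057 for *Dgat2* to *Dgat1*, -0.021 for *Gk* to *Pck1* and 0.21 for *Agpat2* to *Agpat3* in males, and -0.038 for the last between WT sexes. With the prefix as a covariate *Agpat2* had -0.011 and *Dgat2* -0.0012 in males, *Gpam* -0.38 and *Gk* -0.13 in females, and *Gpam* 0.22 in the interaction; this covariate could not be fitted between WT sexes. Of the alternatives added after seeing the data, matched transcripts rescaled to one sum gave -0.053 for *Gpam* in females and -0.016 for *Pck1* between WT sexes and moved the median of all genes to 0.04 in females, leaving out male WT replicates 1 and 2 gave -0.059 for *Agpat2*, -0.020 for *Dgat2* and -0.030 for *Gpd2* in males, and leaving out female KO replicates 1 and 4 gave -0.13 for *Gpam*, 0.0067 for *Agpat2*, 0.27 for *Dgat2* and -0.18 for *Gk* in females, and 0.025, -0.24 and 0.12 for *Gpam*, *Dgat2* and *Gk* in the interaction.

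Single libraries left out in turn gave ranges across 0 in males for *Agpat2* (-0.089 to 0.14), *Dgat2* (-0.042 to 0.078), *Dgat1* (-0.31 to 0.0087), *Gk* (-0.17 to 0.11) and *Pck1* (-0.17 to 0.060), in females for *Agpat3* (-0.10 to 0.065) and *Gpam* (-0.14 to 0.15), and in the interaction for *Agpat2* (-0.013 to 0.24) and *Gpam* (-0.26 to 0.029). Between WT sexes they did so for *Lpin1* (-0.33 to 0.052), *Dgat1* (-0.040 to 0.28), *Gpd2* (-0.33 to 0.056), *Gk* (-0.072 to 0.20), *Pck1* (-0.075 to 0.19) and *Gpam* (-0.22 to 0.045). Among ratios this held for *Gpd1* to *Gpd2* (-0.16 to 0.071) and *Gpam* to *Gpat4* (-0.045 to 0.13) between WT sexes, for *Gk* to *Pck1* in males (-0.19 to 0.19), females (-0.028 to 0.60) and between WT sexes (-0.17 to 0.22), for *Agpat2* to *Agpat3* in females (-0.12 to 0.021) and for *Lpin1* to the other lipins in males (-0.14 to 0.34). In females *Gpd1* stayed between -0.98 and -0.63, *Gpd2* between -1.34 and -0.92 and *Lpin1* between -1.74 and -1.11.

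The number of all genes called varied more. In males the 1 call became 2 with a pseudocount of 0.1, 0 with no TPM minimum, 3 with median-of-ratios scaling, 12 without mitochondrial transcripts, 18 with protein-coding transcripts, 6 with the prefix, 40 with all 16 libraries in one fit, 4 without male WT replicates 1 and 2, and 0 to 5 without single libraries. In females the 0 calls became 8 with the prefix, 5 with all 16 libraries, 1 without female KO replicates 1 and 4 and 0 to 9 without single libraries. In the interaction they became 1 without male WT replicates 1 and 2 and 0 to 3 without single libraries. For the mean effect the 358 calls became 54 with no TPM minimum, 543 without mitochondrial transcripts, 719 with protein-coding transcripts, 12 with the prefix, 80 with matched transcripts rescaled to one sum and 31 to 1055 without single libraries, lowest without male KO replicate 3 and highest without male WT replicate 2, and leaving out any library except male WT replicate 4 and female WT replicates 1 and 4 moved it by over 1.5 times. Between WT sexes the 8 calls became 4 with protein-coding transcripts and 5 to 11 without single libraries.

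With the replicate number as a block, the calls were 0 in males, 1 in females and 60 in the mean effect, and 0 of the 10 genes passed. Same-numbered samples correlated between -0.08 and 0.35 in males, -0.12 and 0.15 in females and -0.11 and 0.14 between WT sexes, so the numbers were not taken to pair the mice. The depth behind TPM is unknown, and the groups of 4 limit every comparison.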

Other observations

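A few more genes of the pathway and regulator lists did not overlap between genotypes in one sex. In males 2 of 25 pathway genes lay wholly above in KO mice and 1 below, against 9.55% and 0.673% of all genes. In females 4 of 26 pathway genes lay wholly above and 1 below, against 4.89% and 3.19% of all genes. Those above were *Agpat4*, *Lpin3*, *Plpp1* and *Plpp3*. With matched transcripts rescaled to one sum, the female groups overlapped for *Lpin3* (WT up to 2.74, KO from 2.40) and *Plpp3* (WT up to 24.1, KO from 21.1). Of the 14 regulators, 1 lay wholly above and 1 below in females, and 0 did so in males. *Gk5*, a relative of glycerol kinase, was lower in all female KO than in all female WT mice, with a log2 fold change of -0.56 (adjusted p = 0.253 by limma). *Agpat1*, an acyltransferase of the second acylation, was higher in all male KO than in all male WT mice, with 0.30 (adjusted p = 0.219 by limma), and *Ctdnep1*, which encodes a phosphatase that acts on lipin, was higher in all female KO than in all female WT mice, with 0.39 (adjusted p = 0.241 by limma), but its groups overlapped once the matched transcripts were rescaled to one sum. None of these 3 genes, which were chosen after their values were seen, passed the threshold.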
